A study of Mus musculus with 6 samples.

Results

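The genes described here are the suppressors of cytokine signalling (SOCS) family, made up of Socs1 to Socs7 and Cish, and the kinase genes Pim1 and Pim3, followed in mouse embryonic stem cells with and without BACH1. They were taken by gene symbol from the deposited expression table. All 10 symbols had a row among 18518 gene symbols, and all 10 were among the 12187 genes that averaged 1 FPKM or more over the 6 libraries (FPKM counts fragments per length of transcript and per size of library). The cells were E14Tg2A, an established mouse embryonic stem cell line, with 3 wild-type (WT) libraries and 3 BACH1-KO libraries, whose Bach1 gene was targeted with CRISPR/Cas9. Both genotypes were kept for 2 days in medium with 10% serum and 200 units/ml leukemia inhibitory factor (LIF). The knockout cells alone are described as transfected with a guide plasmid, selected with puromycin and sorted as single-cell clones, and the labels do not say how many clones the 3 libraries represent. They leave unsaid, too, whether the libraries of a genotype came from separate cultures, so a p-value here reflects only how far these libraries scatter, and that scatter can be technical. Among the sample titles, 3 share one ending and 2 another across the genotypes, but the labels do not say what the endings mean and no column could be tied to a title, so their part in the results was not tested.

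LIF binds a receptor made of LIFR and the shared subunit encoded by Il6st, the attached JAK kinases phosphorylate STAT3, and STAT3 enters the nucleus and holds mouse embryonic stem cells in self-renewal. SOCS3 is the classical feedback product of this pathway: STAT3 switches on its gene, and the protein binds the receptor and the JAK kinase and ends the signal. All SOCS proteins carry an SH2 domain, which docks on phosphotyrosine, and a SOCS box, which recruits a ubiquitin ligase built on elongins and a cullin. PIM kinases are serine/threonine kinases that are active as soon as they are made, and their genes are known targets of STAT factors.

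STAT factors bind DNA at the palindrome TTCNNNGAA, and 3 short sequences from the start regions of members are shown because they place such sites, or the interferon-responsive element (2 GAAA repeats 2 bases apart), beside the genes whose levels follow. The sequences are from RefSeq (GRCm38.p6, the assembly also called mm10), 5′ to 3′ on the strand of the gene, with the motif matches in capitals.
Socs3, chr11:117969502-117969530, minus strand: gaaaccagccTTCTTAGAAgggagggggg
Cish, chr9:107296654-107296683, plus strand: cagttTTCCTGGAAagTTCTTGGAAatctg
Socs1, chr16:10785597-10785626, minus strand: cttgccgGAAAGAGAAACCGAAAgcggggg
RefSeq start windows, from 250 bases before to 50 after an annotated start, matched 6 members (Socs1, Socs3, Socs4, Cish, Pim1 and Pim3) in 7 windows, since Pim1 has 2. The STAT letters were found in the Socs3 and Cish windows, and in 8.30% of the 32851 windows of the same length in the RefSeq table. In Socs3 they lie at positions -154 to -146 from the RefSeq start (117969366). Cish holds 2 copies, at positions 1 to 9 and 12 to 20 from its RefSeq start (107296659), and 0.457% of all windows hold 2 or more. The gene coordinates printed below, from GENCODE, begin further upstream (117970047 for Socs3 and 107296026 for Cish). By that annotation these sites lie inside the genes. The interferon element occurred as 2 overlapping copies in Socs1 and in 3.44% of all windows. The STAT6 form, TTC and GAA with a spacer of 4 bases, is in 6.95% of all windows, the AP-1 element TGANTCA in 7.81%, and TGC followed directly by TGAGTCA, a form of the element bound by BACH1 with small MAF partners, in 0.155%. None of these 3 was found in the 7 windows. Both strands were searched, and the last motif contains the AP-1 element. A match is a description of these letters and not a measured binding site.

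Across the libraries, 16047 to 16159 genes had a value above 0 in WT and 17276 to 17455 in BACH1-KO. Bach1 transcript was at 7.97, 8.39 and 8.47 FPKM in WT and at 10.5, 10.4 and 10.4 FPKM in BACH1-KO (limma adjusted p = 5.15e-04), so its level does not check the genotype labels. All 10 embryonic stem cell markers examined were expressed at a mean of at least 1 FPKM, and their sum lay between 10617 and 11395 FPKM in WT and between 6810 and 7064 in BACH1-KO. Most of that sum was Dppa5a (6606 and 4284 FPKM on average); 8 of the 10 fell, while Nanog (298.5 ± 3.96 to 313.3 ± 3.68 FPKM) and Sall4 (11.0 ± 1.95 to 14.6 ± 1.09 FPKM) rose. Markers of other cell types differed as well. For 10 hepatocyte markers the sum lay between 11.0 and 16.5 FPKM in WT and between 840.9 and 869.1 in BACH1-KO, led by Alb. Afp, a fetal liver marker, was listed at 0 in BACH1-KO and was above 0 only in the second WT library (0.0651 FPKM). For 10 fibroblast feeder markers WT sums lay between 199.1 and 218.6 FPKM and BACH1-KO sums between 67.0 and 70.0, most of it Vim. Thy1 and Pdgfrb fell with Vim. Col1a2, Col3a1, Lum, Dcn and Postn, all under 1 FPKM, were higher in every BACH1-KO library than in any WT library. Of these, Col3a1 and Lum were listed at 0 in WT. Col1a1, also under 1 FPKM, went the other way without overlap (0.649 ± 0.0884 and 0.264 ± 0.0946 FPKM). Col6a1 overlapped between genotypes. For 8 primitive endoderm markers the sum was 9.26 to 10.1 FPKM and 4.21 to 5.33 FPKM. Most of this drop was Lama1 (4.68 ± 0.0537 and 0.789 ± 0.0936 FPKM), and Dab2 fell with it (1.62 ± 0.272 and 1.02 ± 0.0790 FPKM). Gata6 and Pdgfra, both under 1 FPKM and not tested, were lower in each BACH1-KO library than in all WT libraries. Gata4 did not pass, though each of its BACH1-KO values lay above its WT values. Sox17, Sox7 and Foxa2 overlapped between genotypes. For 8 blood cell markers the sum was 2.45 to 3.50 FPKM and 11.0 to 12.1 FPKM, with Tyrobp listed at 0 in BACH1-KO. Hba-a1 carried most of this difference (0.610 ± 0.672 and 6.94 ± 0.241 FPKM), and Cd3e and Spi1 rose with it. Gata1 went against the sum and fell (1.62 ± 0.361 and 0.417 ± 0.271 FPKM). The part of these differences in the results below was not tested, and in bulk RNA fewer cells of a type and less RNA per cell cannot be told apart.

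Of the 10 genes, 6 fell in BACH1-KO (Socs2, Socs3, Socs4, Socs6, Cish and Pim3), 1 rose (Socs5) and 3 did not pass the test (Socs1, Socs7 and Pim1). Over all 12187 genes 77.0% passed, 37.3% higher and 39.7% lower. The share of members that passed (7 of 10) was thus near that of genes in general. The median log2 fold change was -0.38 over the members and -0.01 over all tested genes, each taken as BACH1-KO less WT after log2(FPKM + 1), a transform that makes changes of low genes look smaller. In 8 of the 10 the libraries of the genotypes did not overlap, as in 79.3% of all tested genes. When the test was against a fold change of 1.5, Socs3 alone of the 10 passed, beside 19.0% of all genes (8.16% lower and 10.9% higher).

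**Figure D1:**
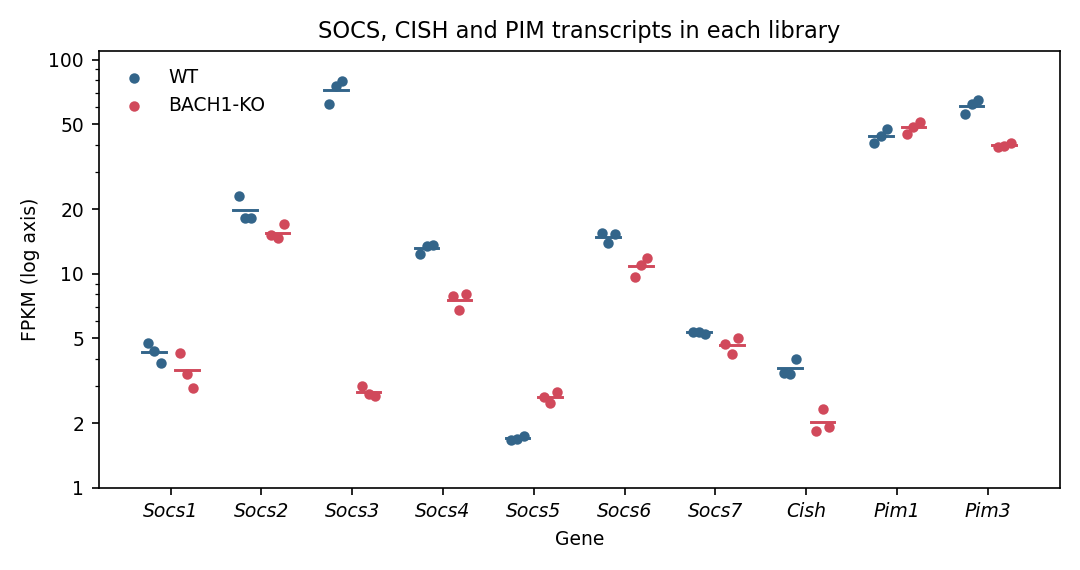
FPKM on a log axis for each of the 10 genes, with 1 point per library (WT in blue, BACH1-KO in red) and a line at each group mean. Socs3 stands at 62.3 to 79.5 FPKM in WT, with BACH1-KO at 2.68 to 2.98, while the points of Socs1 and of Pim1 overlap between genotypes.

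Among the cytokine-inducible members, Socs3 had the largest log2 fold change. Socs3 (ENSMUSG00000053113.3, chromosome 11, 117966079 to 117970047, minus strand, mm10) was measured at 62.3, 75.1 and 79.5 FPKM in the WT libraries and at 2.98, 2.75 and 2.68 FPKM in the BACH1-KO libraries. The genotypes were far apart, and the lowest WT library was the first in the table. Mean Socs3 fell from 72.3 ± 8.92 FPKM in WT to 2.80 ± 0.160 in BACH1-KO (SD, n = 3). In log2 terms this was a fold change of -4.26 (SE 0.09, 95% interval -4.46 to -4.06, limma adjusted p = 1.46e-08). No other tested gene had a lower log2 fold change on this scale, and with a pseudocount of 0.1 FPKM 2 genes did. Leaving out any 1 library moved the value between -4.36 and -4.19.

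Socs3 was also set against Stat3, the gene of the factor that switches it on. Stat3 was at 21.9, 24.2 and 23.6 FPKM in WT and 7.93, 7.72 and 8.40 FPKM in BACH1-KO. Socs3 stood at 2.85, 3.10 and 3.37 FPKM per FPKM of Stat3 in WT and at 0.376, 0.355 and 0.319 in BACH1-KO. The same ratio to Lifr, the LIF-binding receptor subunit, went from 6.17 ± 0.355 to 0.701 ± 0.0844 (SD, n = 3). In both ratios every WT library was above every BACH1-KO library. These ratios were chosen after the values were seen and are given without a test.

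Cish, which encodes CIS, a feedback inhibitor best known downstream of STAT5, also fell. The gene (ENSMUSG00000032578.7, chromosome 9, 107296026 to 107302784, plus strand) was at 3.45, 3.41 and 4.00 FPKM in WT and 1.83, 2.33 and 1.93 FPKM in BACH1-KO, with no overlap. Its log2 fold change of -0.61 (SE 0.09) had a limma adjusted p of 3.41e-04. Its low level leaves few fragments behind each value, and 2 annotated genes on the opposite strand overlap it. Whether fragments were assigned by strand is not given in the sources used here, so reads of Cish and of its antisense partners cannot be told apart.

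Socs2, the inhibitor of growth hormone signalling, fell by less. It lies on chromosome 10 (ENSMUSG00000020027.18, 95385362 to 95417180, minus strand) and was at 23.2, 18.3 and 18.2 FPKM in WT and 15.1, 14.6 and 17.0 FPKM in BACH1-KO. The groups did not overlap, though the nearest libraries of the genotypes were 17.0 and 18.2 FPKM, and the first WT library stood above the others. A log2 fold change of -0.33 (SE 0.10) gave a limma adjusted p of 0.0137, which came to 0.0490 without the second BACH1-KO library.

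Socs1, an inhibitor of JAK kinases known for restraining interferon signalling, did not pass. Socs1 (ENSMUSG00000038037.5, chromosome 16, 10782240 to 10785536, minus strand) was at 4.75, 4.34 and 3.83 FPKM in WT and 4.27, 3.41 and 2.93 FPKM in BACH1-KO. The ranges overlapped, and the log2 fold change of -0.23 had a 95% interval from -0.50 to 0.04 (limma adjusted p = 0.0998). It passed without the first BACH1-KO library (log2 fold change -0.35, limma adjusted p = 0.0192) and after quantile normalization (-0.37, limma adjusted p = 0.0230). Without the third BACH1-KO library the value shrank to -0.13 (limma adjusted p = 0.311).

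**Figure D2:**
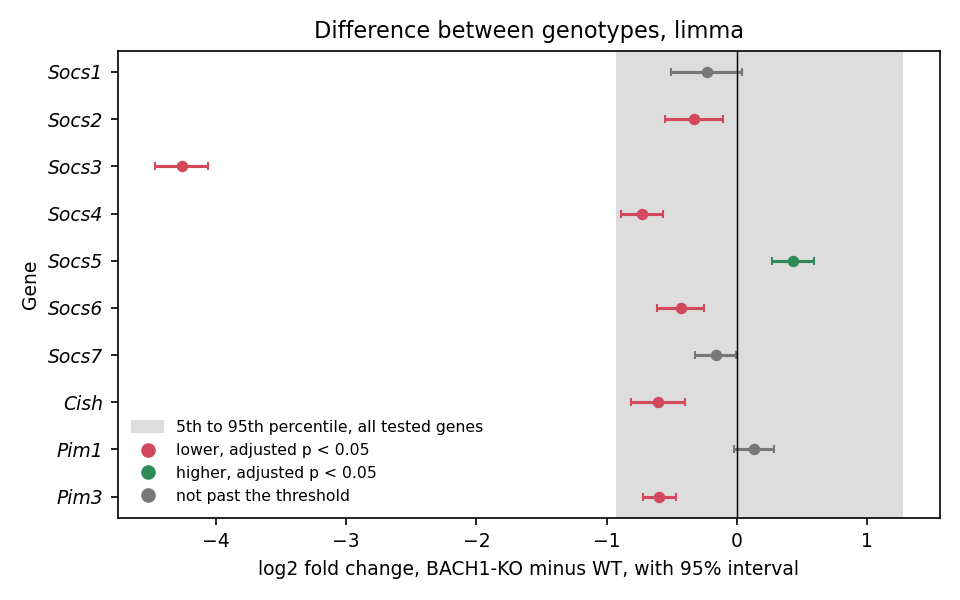
Log2 fold change (BACH1-KO minus WT, log2(FPKM + 1) scale) of each gene with its 95% interval, in red where lower, green where higher and grey where not past the threshold, over a grey band holding the 5th to 95th percentile of all tested genes (-0.92 to 1.27). Socs3 at -4.26 is the member outside the band.

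The long SOCS proteins, SOCS4 to SOCS7, are less tied to cytokine induction. SOCS4 and SOCS5 form a closely related pair with a role in restraining the EGF receptor, and SOCS6 and SOCS7 form another that has been linked to insulin receptor substrates and receptor tyrosine kinases. Socs4 and Socs5 moved in opposite directions. Socs4 (ENSMUSG00000048379.9, chromosome 14, 47276931 to 47296102, plus strand) was at 12.4, 13.5 and 13.7 FPKM in WT and at 7.87, 6.81 and 8.05 FPKM in BACH1-KO. It fell with a log2 fold change of -0.73 (SE 0.07, limma adjusted p = 2.87e-05), next in size to Socs3 among the members on this scale. With a pseudocount of 0.1 FPKM the value of Cish was the larger in size (-0.81, against -0.79 for Socs4). The same held after quantile normalization (-0.81 against -0.77). Socs5 (ENSMUSG00000037104.9, chromosome 17, 87107679 to 87137839, plus strand) was the member with the lowest WT level, at 1.67, 1.70 and 1.74 FPKM in WT, and rose to 2.64, 2.50 and 2.79 FPKM in BACH1-KO. Its log2 fold change of 0.43 (SE 0.07) had a limma adjusted p of 6.00e-04, and no library of one genotype reached the range of the other for either gene.

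Socs6 fell, while Socs7 missed the threshold. Socs6 (ENSMUSG00000056153.15, chromosome 18, 88665224 to 88927481, minus strand) was at 15.5, 13.9 and 15.3 FPKM in WT and 9.63, 11.0 and 11.9 FPKM in BACH1-KO, with a log2 fold change of -0.43 (SE 0.08, limma adjusted p = 1.08e-03). Socs7 (ENSMUSG00000038485.5, chromosome 11, 97362551 to 97398542, plus strand) was at 5.36, 5.36 and 5.23 FPKM in WT and 4.69, 4.24 and 5.00 FPKM in BACH1-KO. The libraries of Socs7 did not overlap, yet the log2 fold change of -0.16 (SE 0.07) had a limma adjusted p of 0.0519. It passed with a constant prior variance (adjusted p = 0.0340), after quantile normalization (0.00649) and without the third BACH1-KO library (0.0344), all by limma.

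The make-up of the SOCS and CISH transcript pool differed between genotypes. FPKM is per length, so levels can be compared and added between genes. The 8 SOCS and CISH genes added up to 128.7, 135.6 and 141.5 FPKM in WT and to 49.0, 47.6 and 52.2 in BACH1-KO. The sums did not overlap (exact two-sided permutation p = 0.1, the smallest that 3 against 3 libraries allow). Socs3 accounted for 81.2% of the difference in means of -85.6 FPKM. The other 7 genes summed to 62.9 ± 3.03 FPKM in WT and 46.8 ± 2.42 FPKM in BACH1-KO (SD, n = 3; exact permutation p = 0.1).

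Socs3 held 53.3 ± 4.26% of the pool in WT and 5.66 ± 0.485% in BACH1-KO (SD, n = 3). Socs2 went from 14.8 ± 2.79% to 31.3 ± 1.02% and Socs6 from 11.0 ± 0.939% to 21.8 ± 1.88%, although the levels of both fell. In order of mean level, Socs3 was the first of the 8 in WT and Socs2 the first in BACH1-KO, where Socs3 came after Socs2, Socs6, Socs4, Socs7 and Socs1. In BACH1-KO the libraries of Socs7 and Socs1, of Socs1 and Socs3 and of Socs3 and Socs5 overlapped, so these neighbours in the order are not separated. In WT the order of the 8 was Socs3, Socs2, Socs6, Socs4, Socs7, Socs1, Cish and Socs5, and Socs1 and Cish alone of these neighbours overlapped.

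**Figure D3:**
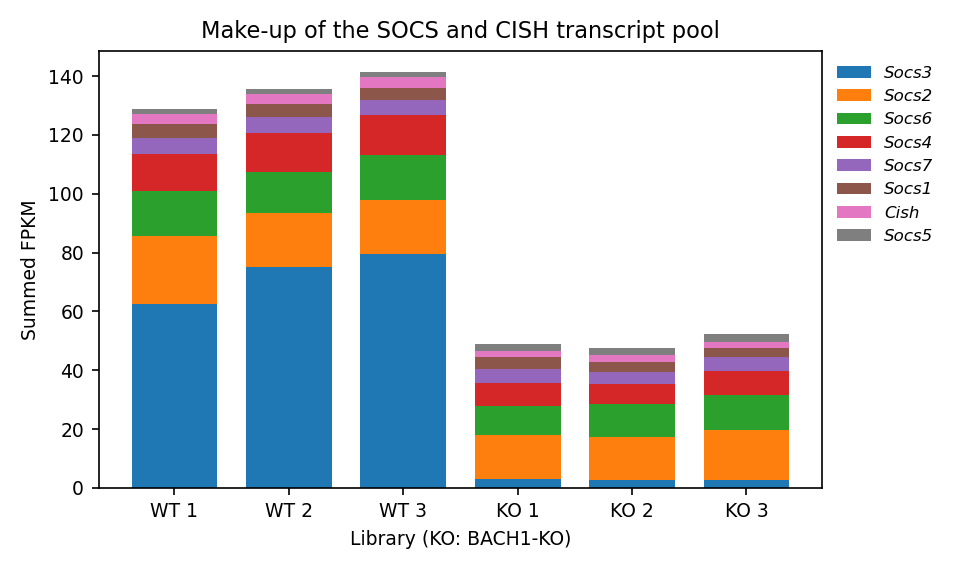
Stacked bars of FPKM for the 8 SOCS and CISH genes in each of the 6 libraries, with 1 colour per gene. The bars reach 128.7 to 141.5 FPKM in WT but 47.6 to 52.2 in BACH1-KO, and the Socs3 segment at the base nearly vanishes in BACH1-KO.

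The PIM kinases also parted. Pim3 (ENSMUSG00000035828.11, chromosome 15, 88862186 to 88865726, plus strand), the STAT3-responsive family member known for promoting self-renewal together with Pim1, was at 55.6, 61.8 and 64.7 FPKM in WT and 39.0, 39.6 and 40.6 FPKM in BACH1-KO. It fell with a log2 fold change of -0.60 (SE 0.06, limma adjusted p = 2.13e-05). The knockout libraries were closely grouped and all lay below the lowest WT library. Pim1 (ENSMUSG00000024014.8, chromosome 17, 29490753 to 29496112, plus strand) was at 40.7, 44.0 and 47.3 FPKM in WT and 44.8, 48.6 and 51.3 FPKM in BACH1-KO. These ranges overlapped, and the log2 fold change of 0.13 had a 95% interval from -0.02 to 0.28 (limma adjusted p = 0.103). Pim1 passed as higher without the third WT library (log2 fold change 0.18, limma adjusted p = 0.0341), without the first BACH1-KO library (0.18, adjusted p = 0.0426) and after quantile normalization (0.21, adjusted p = 0.0164). It was smaller without the first WT library (0.08, limma adjusted p = 0.286) and without the third BACH1-KO library (0.09, adjusted p = 0.302). An annotated antisense gene overlaps the start of Pim1 by 1173 bases, and its reads cannot be told apart from those of Pim1 where strand was not used.

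Pim2, the X-linked relative that is not counted among the 10, rose. It was at 10.9, 11.1 and 11.7 FPKM in WT and 27.7, 27.1 and 26.3 FPKM in BACH1-KO, a log2 fold change of 1.20 (SE 0.05, limma adjusted p = 1.89e-07). Pim1 and Pim3 together summed to 96.3, 105.8 and 112.0 FPKM in WT and 83.8, 88.2 and 91.9 FPKM in BACH1-KO, without overlap. With Pim2 added, the 3 kinases summed to 115.9 ± 8.34 FPKM in WT and 115.1 ± 3.38 FPKM in BACH1-KO (SD, n = 3), and these sums overlapped (exact permutation p = 0.9). Per FPKM of Stat3, Pim3 stood at 2.61 ± 0.110 in WT and 4.96 ± 0.156 in BACH1-KO, the opposite direction to Socs3. Cish per FPKM of Stat5b, the factor gene it is best known downstream of, stood at 0.526 ± 0.0740 and 0.403 ± 0.0243. These ratios, too, were chosen after the values were seen.

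Related members were compared within each library as the log2 ratio of FPKM + 1, for 5 pairs. Pim1 over Pim3 was -0.44, -0.48 and -0.44 in WT and 0.20, 0.29 and 0.33 in BACH1-KO, so Pim3 was the more abundant in each WT library and Pim1 in each BACH1-KO library. Socs1 over Socs3 went from -3.78 ± 0.303 to 0.24 ± 0.155, and Socs4 over Socs5 from 2.39 ± 0.0555 to 1.23 ± 0.0653 (SD, n = 3). Socs6 over Socs7 was 1.33 ± 0.0877 in WT and 1.06 ± 0.149 in BACH1-KO, with no overlap but only 0.04 between the nearest libraries (1.23 and 1.19). Each of these 4 differences had an exact two-sided permutation p of 0.1, which is 0.125 after adjustment over the 5 pairs and cannot reach 0.05 with 3 against 3 libraries. Socs2 over Cish overlapped, with 2.17 ± 0.250 in WT and 2.45 ± 0.200 in BACH1-KO (exact permutation p = 0.2).

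**Figure D4:**
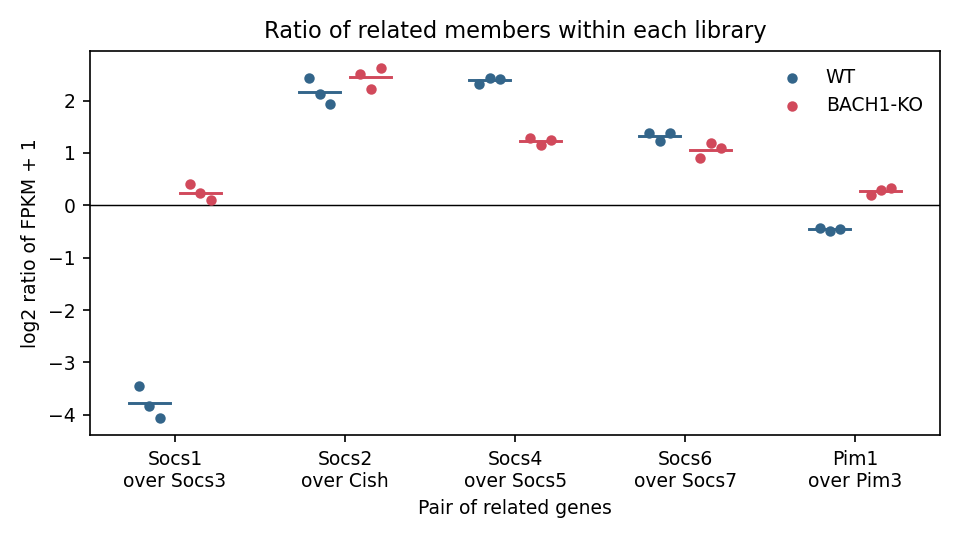
Log2 ratio of FPKM + 1 for 5 pairs of related genes, with 1 point per library (WT in blue, BACH1-KO in red) and a line at each group mean. Pim1 over Pim3 crosses 0 between genotypes, Socs1 over Socs3 goes from a mean of -3.78 to 0.24, and the points of Socs2 over Cish overlap.

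The WT libraries varied among themselves in more than 1 way. The first WT library had the lowest Socs3, Pim1, Pim3, Socs4 and Socs5 values of the 3 and the highest Socs1, Socs2, Socs6 and Socs7 values. The third had the highest value of the other 6 genes. The coefficient of variation in WT ran from 1.39% for Socs7 to 14.2% for Socs2, with 12.3% for Socs3, and in BACH1-KO from 2.03% for Pim3 to 19.2% for Socs1.

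Upstream of the members, the LIF receptor subunits and 3 of the 4 JAK kinases fell, while other receptors of the family split. Counts of called genes in this and the lists that follow stand against 77.0% called over all tested genes, 39.7% lower and 37.3% higher, and no list was tested for a difference from that share. In the list of LIF family ligands and receptors, 7 of 14 genes with a row were expressed enough to test, and 4 fell and 3 rose (median log2 fold change -0.25, against -0.01 for all genes). Lifr fell from 11.7 ± 0.938 to 4.03 ± 0.423 FPKM and Il6st from 12.8 ± 0.535 to 9.97 ± 0.544 FPKM, while Lif itself rose from 1.03 ± 0.356 to 2.70 ± 0.0333 FPKM and Cntfr, the receptor of ciliary neurotrophic factor, from 6.75 ± 0.231 to 8.68 ± 0.326 FPKM (SD, n = 3). Of the 4 JAK kinases, Jak1, Jak2 and Jak3 fell and Tyk2 did not pass. Jak1, the main kinase of this receptor, fell from 18.4 ± 0.792 to 12.1 ± 0.354 FPKM, Jak2 from 3.50 ± 0.196 to 2.36 ± 0.305 FPKM and Jak3 from 8.67 ± 0.186 to 3.20 ± 0.623 FPKM. Among the STAT genes, Stat2 fell from 13.5 ± 0.330 to 8.88 ± 0.215 FPKM and Stat5b from 6.91 ± 0.435 to 5.02 ± 0.348 FPKM, while Stat4 rose from 5.21 ± 0.452 to 10.3 ± 0.158 FPKM.

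Most other inhibitors of the pathway did not pass. Of 11 tested phosphatases, PIAS proteins and adaptors, 2 rose, 2 fell and 7 did not pass (median log2 fold change -0.08). Ptpn11 was at 13.7 ± 0.360 and 13.1 ± 0.337 FPKM and Ptpn6 at 21.8 ± 0.439 and 21.8 ± 2.52 FPKM in WT and BACH1-KO, both named after their values were seen. Dusp22, a phosphatase, rose from 3.68 ± 0.778 to 8.60 ± 0.961 FPKM and Pias2 from 44.4 ± 1.08 to 50.5 ± 0.568 FPKM. Pias3, the STAT3 inhibitor of the PIAS family, fell from 11.9 ± 0.636 to 7.71 ± 0.576 FPKM, and Cbl, a ubiquitin ligase, from 1.44 ± 0.220 to 0.900 ± 0.105 FPKM, reaching the filter through WT only.

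The ubiquitin ligase that SOCS boxes recruit is built from several subunits. Of 11 tested genes of this machinery 8 fell, 2 rose and 1 did not pass (median log2 fold change -0.32), beside 39.7% lower and 37.3% higher over all tested genes. Cul2 fell from 49.6 ± 0.107 to 37.3 ± 1.44 FPKM, the RING protein gene Rbx1 from 96.1 ± 1.16 to 58.8 ± 1.12 FPKM and Cand1, a cullin exchange factor, from 28.1 ± 0.449 to 19.0 ± 1.07 FPKM. Ube2m, the gene of a NEDD8-loading enzyme, rose from 27.4 ± 0.660 to 41.7 ± 1.39 FPKM. Cul5, the cullin of SOCS ligases, fell from 17.2 ± 0.963 to 12.6 ± 0.648 FPKM (named after its values were seen). The elongin genes split, with Tceb1 higher (log2 fold change 0.36) and Tceb2 lower (-0.29). Rnf7, another RING protein gene, fell (-0.27), and Ube2f, another NEDD8-loading enzyme gene, did not pass. These genes, too, were named after their values were seen. Of the 14 tested other SOCS box proteins 6 rose, 5 fell and 3 did not pass (median 0.14). Spsb2 rose from 1.68 ± 0.385 to 4.56 ± 0.618 FPKM and Asb3 from 10.1 ± 0.502 to 21.9 ± 1.14 FPKM, and Wsb2 fell from 20.8 ± 0.748 to 15.3 ± 0.740 FPKM. Spsb4, at 0.492 ± 0.144 and 1.88 ± 0.313 FPKM, reached the filter through BACH1-KO only, so its place among the 6 is no support. Without it 5 of 13 rose and the median was 0.12.

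Of 16 tested receptors and adaptors that SOCS proteins are known to restrain, 6 fell, 3 rose and 7 did not pass (median -0.11), and the share lower was near that over all tested genes (39.7%). Ghr, the growth hormone receptor restrained by SOCS2, was at 0.579 ± 0.142 FPKM in WT and 3.54 ± 0.364 in BACH1-KO. It reached the filter through BACH1-KO only, so its place among the 3 is no support. Irs2, which did not pass, also reached it through BACH1-KO only, and without both 6 of 14 fell and 2 rose (median -0.12). Ghr is abundant in hepatocytes, whose summed markers were higher in the same libraries, and a link between them was not tested. Epor, the erythropoietin receptor, fell from 3.86 ± 0.321 to 1.70 ± 0.240 FPKM, Ifnar2, an interferon receptor subunit, from 17.0 ± 0.383 to 12.1 ± 1.45 FPKM and Ptk2, the focal adhesion kinase gene, from 16.7 ± 0.574 to 14.0 ± 0.221 FPKM.

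**Figure D5:**
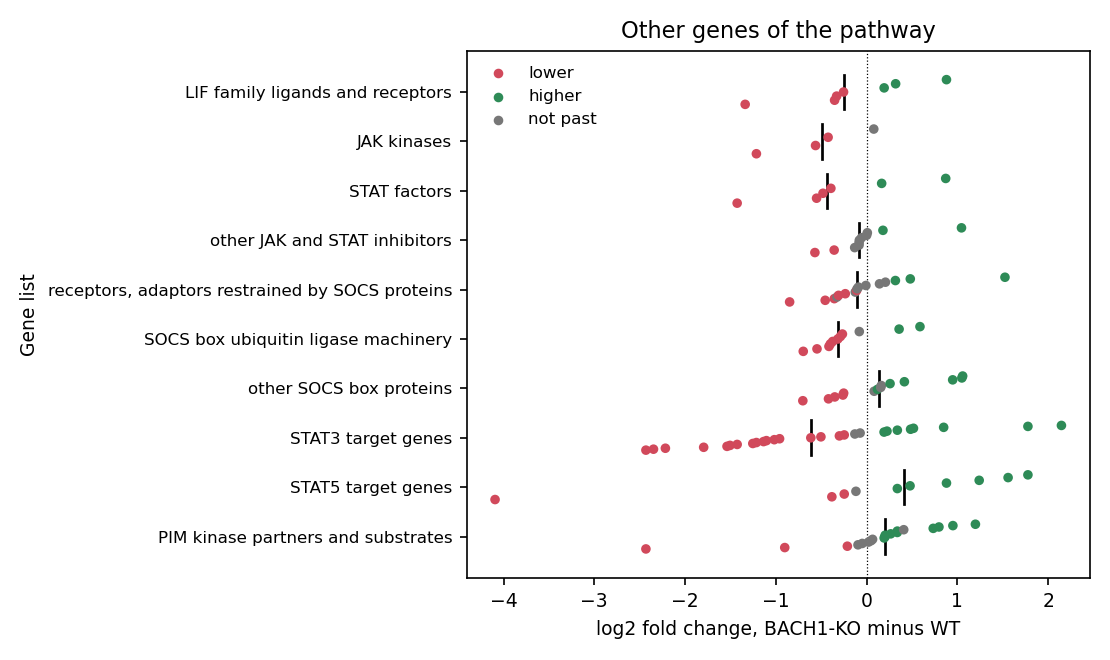
Log2 fold change of each tested gene in 10 lists of the pathway, 1 point per gene (red lower, green higher, grey not past the threshold), with a black bar at the list median. The list of STAT3 targets has its median at -0.61 and the list of STAT5 targets at 0.41, and these lists share some genes.

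The target lists of STAT3 and STAT5 were counted separately, and the difference between them was not tested. Bcl6, Bcl2l1, Mcl1 and Gadd45g stand in both lists, so the lists are not independent. Stat3 and Jak3, described above, are among the STAT3 targets that fell. Of 27 tested STAT3 targets other than the members, 17 fell, 8 rose and 2 did not pass (median -0.61), beside 39.7% lower and 37.3% higher over all tested genes. Cebpd, among the 8, reached the filter through BACH1-KO only (0.772 and 2.19 FPKM), and without it 17 of 26 fell and 7 rose (median -0.79). Klf4 fell from 41.7 ± 2.03 to 7.39 ± 0.607 FPKM, Ier3 from 83.8 ± 2.65 to 17.3 ± 1.95 FPKM, Ccnd3 from 144.1 ± 4.30 to 70.7 ± 0.0842 FPKM and Pfkp, a phosphofructokinase, from 128.5 ± 6.34 to 57.9 ± 0.566 FPKM. Cebpb, a transcription factor that is also induced by stress, rose from 2.63 ± 0.183 to 15.1 ± 1.78 FPKM (named after its values were seen). Of 10 tested STAT5 targets 6 rose, 3 fell and 1 did not pass (median 0.41). Id1, better known as a BMP target, fell from 156.9 ± 4.16 to 8.33 ± 1.59 FPKM, while Ccnd2 rose from 1.56 ± 0.148 to 5.05 ± 0.216 FPKM and Gadd45g from 3.15 ± 0.469 to 13.2 ± 0.654 FPKM. Igf1, at 0.0391 ± 0.0313 FPKM in WT and 2.07 ± 0.311 in BACH1-KO, reached the filter through BACH1-KO only, and without it 5 of 9 rose and the median was 0.34. Igf1 is made mainly by hepatocytes, whose summed markers were higher in the same libraries, and a link between them was not tested.

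In the list of PIM kinase partners and substrates, which includes Pim2 itself, 10 of 19 tested genes rose, 3 fell and 6 did not pass (median 0.20). This stands beside 37.3% higher and 39.7% lower over all tested genes. Cxcr4, which did not pass, reached the filter through BACH1-KO only, and without it 10 of 18 rose and 3 fell (median 0.20). Beside Pim2, the apoptosis gene Bad rose from 15.3 ± 0.669 to 26.1 ± 0.650 FPKM and Eif4ebp1, a repressor of cap-dependent translation, from 475.1 ± 0.734 to 826.1 ± 19.0 FPKM. Eif4b, a translation initiation factor, fell from 261.5 ± 2.95 to 139.5 ± 3.19 FPKM. These are transcript levels and carry no measure of phosphorylation.

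Genes next to the members on the chromosome were examined as well. Of the 20 nearest protein-coding genes with a row, 1 on each side, 14 were expressed enough to test, and 7 fell, 2 rose (Mcfd2, and Fgd2, which reached the filter through BACH1-KO only) and 5 did not pass (median log2 fold change -0.13). That is fewer called than the 77.0% over all tested genes, and the difference was not tested. The 5 that did not pass were Clec16a, Cradd, Mapk1ip1l, Cript and Rttn. Mrpl42 and Arhgap23 were among the 7 that fell. Pgs1, a phospholipid synthesis gene 16245 bases from Socs3, fell from 45.0 ± 2.07 to 20.4 ± 0.471 FPKM (log2 fold change -1.11, limma adjusted p = 2.27e-07), and Tha1 on the other side was at 0.607 ± 0.220 and 0.470 ± 0.101 FPKM and was not tested. Both neighbours of Cish fell, Mapkapk3, a stress-activated kinase gene, from 25.7 ± 1.16 to 17.0 ± 0.319 FPKM and Hemk1 from 12.5 ± 0.651 to 9.64 ± 0.674 FPKM. Wdhd1, a replication gene, lies 74 bases from Socs4 on the opposite strand, with starts facing away from each other, and fell from 33.3 ± 1.26 to 26.3 ± 0.774 FPKM. Of the neighbours of Pim3, Creld2 fell from 64.7 ± 1.66 to 56.8 ± 2.05 FPKM, and Ttll8 was at or below 0.0462 FPKM on average in both genotypes.

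The genes whose pattern over the 6 libraries was most like that of Socs3, by the distance between centred log2(FPKM + 1) values, were Id1 (distance 0.53), S100a6 (0.79), Gm6793 (1.02), Etv4 (1.06) and Krt42 (1.06). S100a6, a calcium-binding protein gene, went from 129.6 ± 3.50 to 9.01 ± 1.22 FPKM, Etv4, an ETS factor, from 48.4 ± 3.46 to 3.47 ± 0.334 FPKM, and the keratin gene Krt42 from 49.1 ± 1.43 to 3.51 ± 0.569 FPKM. Gm6793 was listed at 0 in each BACH1-KO library and at 6.45, 14.4 and 14.9 FPKM in WT. Over 6 libraries in 2 groups this likeness is mainly a likeness in the size of the genotype difference.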

How the data were processed

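The deposited table holds FPKM values made by the authors with Cufflinks on mm10, the tool and build listed in the submitters' processing notes. For aligner, annotation and versions, nothing is stated there: not given in the sources used here. Each column names a genotype but not a sample title, so it was used as an unnumbered replicate of its group. Rows with a number where a symbol should be (23 of them, 0.0987% of all FPKM) were not used. Absolute depth is unknown; the steps of values under 0.1 FPKM put the WT libraries at 1.00, 1.11 and 1.06 of the first in depth, with BACH1-KO at 1.17, 1.17 and 1.01, so precision is that of replicate spread.

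Genes averaging 1 FPKM or more were fitted as log2(FPKM + 1) by limma 3.58.1 (R 4.3.3), with lmFit and a trended eBayes prior. The two-sided comparison of genotypes used 3 libraries each, Benjamini-Hochberg adjustment over the 12187 genes and a threshold of 0.05. Only genes past it are said to have risen or fallen. Sums and ratios per library were compared with exact permutation tests (scipy 1.17.1). The fit was tested on simulated data with 200 changed genes. Coordinates are from GENCODE M21 (mm10). Alternatives were other pseudocounts, filters, scalings and prior variances, a test against a fold change of 1.5, and leaving out each library. The text names every member, Bach1, up to 4 called genes of each list (lowest adjusted p), the tested nearest genes and the 5 most like Socs3. The members and lists were chosen with earlier results of these data known, so the counts are descriptions. A further list and 1 gene are not reported here.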

Additional observations from a re-analysis of the deposited data

How the results depend on the processing

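The 10 members kept the direction of their log2 fold change in all 126 values tried, and 112 of these also stayed on the same side of the threshold. The 6 called members other than Socs3 (Socs2, Socs4, Socs5, Socs6, Cish and Pim3) were lost when tested against a fold change of 1.5, and 8 values of Socs1, Socs7 and Pim1 passed where the reported one did not. Bach1, the list genes named by lowest adjusted p and the genes most like Socs3 made up 44 others. These 44 kept their direction in all 559 values, with 18 no longer past the threshold, all of them against a fold change of 1.5. The nearest genes were not included. Members called lower numbered 6 and ranged from 6 to 7 when 1 library was left out, and members called higher numbered 1 and ranged from 1 to 2. Members called higher were 0 with a filter at 5 FPKM, which removes Socs5, 2 with quantile normalization and 0 against a fold change of 1.5, where 1 was called lower. Members called lower were 8 with quantile normalization, so all 10 passed there. They were 7 with a constant prior variance and 5 with the filter at 5 FPKM. Over all genes, 2942 were called higher with the filter at 5 FPKM, among fewer genes tested, and 1325 higher and 994 lower against a fold change of 1.5. Against that fold change, the genes called in either direction numbered 1 of the LIF family, 1 JAK kinase, 2 STAT factors, 1 other inhibitor, 1 restrained receptor or adaptor, 1 gene of the ubiquitin ligase machinery, 3 other SOCS box proteins, 15 STAT3 targets, 4 STAT5 targets and 6 PIM partners. With the filter at 5 FPKM, 4 of the LIF family, 5 restrained receptors or adaptors, 5 other SOCS box proteins and 5 STAT5 targets were called. With no filter, 15 restrained receptors or adaptors were called, among more genes tested. The family sum, the shares and the ratios of related members kept their direction under every alternative run for them. No paired analysis was possible because the columns carry no replicate number that the labels tie to a sample. Depth limits what can be said of Cish, Socs1 and Socs5, which lie between 1.67 and 4.75 FPKM. Socs3 in BACH1-KO, at 2.68 to 2.98 FPKM, lies in the same range, so the size of its fold change is limited too. Its log2 fold change was -4.26 in the main fit and -4.63 with a pseudocount of 0.1 FPKM.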
